A study of Mus musculus with 4 samples.

Results

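The genes described here encode the proteins of the mitochondrial ribosome, the machine inside mitochondria that translates the mRNAs of the mitochondrial genome. They were taken from the deposited gene table by symbol (Mrpl or Mrps followed by a number, without the entries marked -ps), which gave 78 of its 28723 genes. Of these, 49 carry the symbol of the large subunit (Mrpl) and 29 that of the small subunit (Mrps). RNA from the hearts of C57BL/6J mice, genotype WT and untreated, was sequenced in 2 libraries at 12 months of age (FLOX5 and FLOX6, written as aged replicates 1 and 2) and in 2 libraries at 8 weeks (C4 and C5, young replicates 1 and 2). The titles of the 12-month libraries read FLOX, although their genotype field reads WT. The age stands in a field named batch, so batch and age cannot be told apart. The labels do not say whether the libraries came from separate animals, and p-values then measure the spread between these samples, which may be technical.

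A mitochondrial ribosome joins a large and a small subunit, each built from 1 ribosomal RNA made in the mitochondrion and from many proteins that are encoded in the nucleus, translated in the cytosol and imported. Its products are core subunits of the respiratory chain and the ATP synthase, on which heart muscle depends for most of its ATP. Some of its proteins have bacterial counterparts and others exist only in mitochondria, and in people recessive variants in several of the genes cause disease of the heart muscle. Symbols and places differ for 3 members: Mrps18a and Mrps30 sit in the large subunit of mammalian structures, and the product of Mrps36 is known as a subunit of the oxoglutarate dehydrogenase complex. By place in the structure, 51 members belong to the large and 26 to the small subunit.

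The library totals were 55411355 and 51328364 counts in aged hearts, against 52866260 and 63828074 in young hearts. The members took 0.264 and 0.278% of the counts in aged hearts, against 0.321 and 0.307% in young hearts, and genes encoded in mitochondria took 23.7 and 23.2%, against 27.1 and 27.3%. All 78 members passed the filter of a mean of at least 1 FPKM (a level per gene length and library size) over the 4 libraries, with the lowest mean at 1.89 FPKM and the lowest count in any library at 388. Markers of heart muscle were high at both ages, summing to 13520 and 13350 FPKM in aged hearts, against 13620 and 13650 FPKM in young hearts (7 genes, of which 3 were called lower and 2 higher). Markers of other cells differed between the ages. The 5 atrial markers summed to 4400 and 1666 FPKM in aged hearts, against 281.2 and 286.7 FPKM in young hearts, and all 5 were called higher; none was at 0. The 8 fat cell markers summed to 133 and 135.1 FPKM in aged hearts, against 24.98 and 17.76 FPKM in young hearts (6 of 7 tested called higher), with Lep at 0 in 1 library. The 6 endothelial markers summed to 129.9 and 125.9 FPKM in aged hearts, against 271.1 and 270.1 FPKM in young hearts, and all 6 were called lower; none was at 0. The 5 blood and immune markers summed to 2377 and 2414 FPKM in aged hearts, against 1677 and 1520 FPKM in young hearts (2 of 3 tested called higher), and none was at 0. The 2 called were the hemoglobin genes Hba-a1 and Hbb-bs, which held nearly all of these sums. The immune marker Cd68 was not called (edgeR, adjusted p = 0.0738), and Ptprc and Cd3e were below the filter. The part of these differences in the members' values was not tested. In RNA from hearts, a different share of a cell type in the sample and a different RNA level per cell cannot be told apart.

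To show what lies in front of members that moved in each direction, the 250 bases before the start of 4 genes are printed from RefSeq (GRCm38.p6), 5′ to 3′ on the strand of the gene. The first pair are called-lower members, those with the largest falls whose upstream bases hold an NRF1 or an ETS motif and whose RefSeq start lies within 10 bases of the deposited one, and the other pair are both called-higher members. Capitals mark matches of the NRF1, ETS and YY1 motifs that are spelled out after the sequences. Mrps21 lies at chr3:95871515-95871764, minus strand, with the NRF1 motif on the opposite strand, its first printed base 91 bases before the gene. Mrpl52 lies at chr14:54426659-54426908, plus strand, with the ETS motif on the opposite strand 47 bases before the gene. Mrps2 lies at chr2:28467816-28468065, plus strand, and Mrpl50 at chr4:49521084-49521333, minus strand, and neither holds a match. No member called lower met the same rule for YY1. The called-lower pair was chosen for holding a motif, so the difference between the pairs follows from the choice.
Mrps21: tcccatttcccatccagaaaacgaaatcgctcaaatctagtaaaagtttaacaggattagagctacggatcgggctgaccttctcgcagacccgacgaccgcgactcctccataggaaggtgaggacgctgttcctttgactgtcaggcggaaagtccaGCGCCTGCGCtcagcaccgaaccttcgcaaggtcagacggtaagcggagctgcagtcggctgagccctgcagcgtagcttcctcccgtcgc
Mrpl52: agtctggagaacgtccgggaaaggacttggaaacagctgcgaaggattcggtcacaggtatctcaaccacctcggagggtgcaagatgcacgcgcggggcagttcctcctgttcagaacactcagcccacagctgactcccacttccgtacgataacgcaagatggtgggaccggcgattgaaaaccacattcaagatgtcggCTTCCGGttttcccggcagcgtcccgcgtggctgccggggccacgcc
Mrps2: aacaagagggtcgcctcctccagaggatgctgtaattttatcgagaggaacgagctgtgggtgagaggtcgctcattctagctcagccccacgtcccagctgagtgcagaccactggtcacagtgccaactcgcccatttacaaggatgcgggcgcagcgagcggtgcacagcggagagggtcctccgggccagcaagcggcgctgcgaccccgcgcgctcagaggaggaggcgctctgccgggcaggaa
Mrpl50: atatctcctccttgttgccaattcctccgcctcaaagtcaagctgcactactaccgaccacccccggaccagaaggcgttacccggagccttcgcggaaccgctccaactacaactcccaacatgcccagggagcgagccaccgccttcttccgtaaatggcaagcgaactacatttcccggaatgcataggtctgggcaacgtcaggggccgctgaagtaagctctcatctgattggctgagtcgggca

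Motifs of factors known to drive nuclear genes of mitochondrial function were counted in RefSeq windows of 250 bases before to 50 after each start, which exist for 69 of the 78 members (75 windows). The letters searched on both strands were GCGCA, any base and then GCGC for NRF1, CCGGAAG for ETS factors, AAGATGGCG for YY1 and AAGGTCA for the oestrogen-related receptors (ERR). Matches of different motifs may overlap each other. The NRF1 motif stood in 17.3% of members' windows, against 9.78% of windows of tested genes and 4.6% of all windows. The ETS motif stood in 34.7%, against 17.2 and 8.86%, and the YY1 motif in 10.7%, against 3.04 and 1.4%. At least 1 of these 3 motifs was found in 54.7% of members' windows, against 27.0% of windows of tested genes. Among members called lower with age the shares were 16.7% for NRF1, 38.9% for ETS and 11.1% for YY1, against 17.9, 30.8 and 10.3% in the windows of the other members. The ERR motif was found in 4 windows, those of Mrpl12, Mrpl36, Mrps15 and Mrps21, all called lower; its share was 5.33% in members, against 3.18% of windows of tested genes and 4.72% of all windows. A match is a description of letters and no match says only that the letters are not in the window.

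Transcripts of mitochondrial ribosomal proteins were lower in aged hearts for 40 of the 78 members and higher for 2, Mrps2 and Mrpl50, and 36 were not called (edgeR's quasi-likelihood test, Benjamini-Hochberg adjusted p below 0.05 over the 12027 tested genes). The background was 17.5% of tested genes called lower and 20.1% called higher, against 51.3 and 2.56% of the members. The median log2 fold change, 12 months over 8 weeks, was -0.34 over the members and 0.01 over all tested genes. Single values ran from -1.02 (Mrps21) to 0.56 (Mrps2), and 60 members had a value below 0. The aged libraries did not overlap with the young ones in 69 members (88.5%, with 56 lower and 13 higher). The background was 73.3% of tested genes, with 36.2% lower and 37.0% higher.

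The count of called members rested on the young libraries more than on the aged ones. It was 9 lower and 2 higher without young replicate 1 (7.4 and 9.87% of tested genes), and 23 lower and 1 higher without young replicate 2 (8.71 and 10.5%). Without aged replicate 1 it was 37 and 3 (16.0 and 17.4%), and without aged replicate 2 it was 38 and 4 (17.8 and 20.9%). At an adjusted p below 0.01 it was 20 lower (8.46% of tested genes). In each of the 4 fits that leave out a library 8 members were called lower (Mrpl20, Mrpl23, Mrpl33, Mrpl41, Mrpl51, Mrpl54, Mrps16 and Mrps21) and Mrps2 was called higher, and no called member changed sign. The other members called lower lost their call in at least 1 of them: 9 of the 40 remained without young replicate 1 and 22 without young replicate 2. With FPKM rescaled to 1 sum per library (limma), which moves the median of all genes to 0.16, 18 members were called lower and 13 higher, against 9.1 and 31.6% of tested genes.

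**Figure D1:**
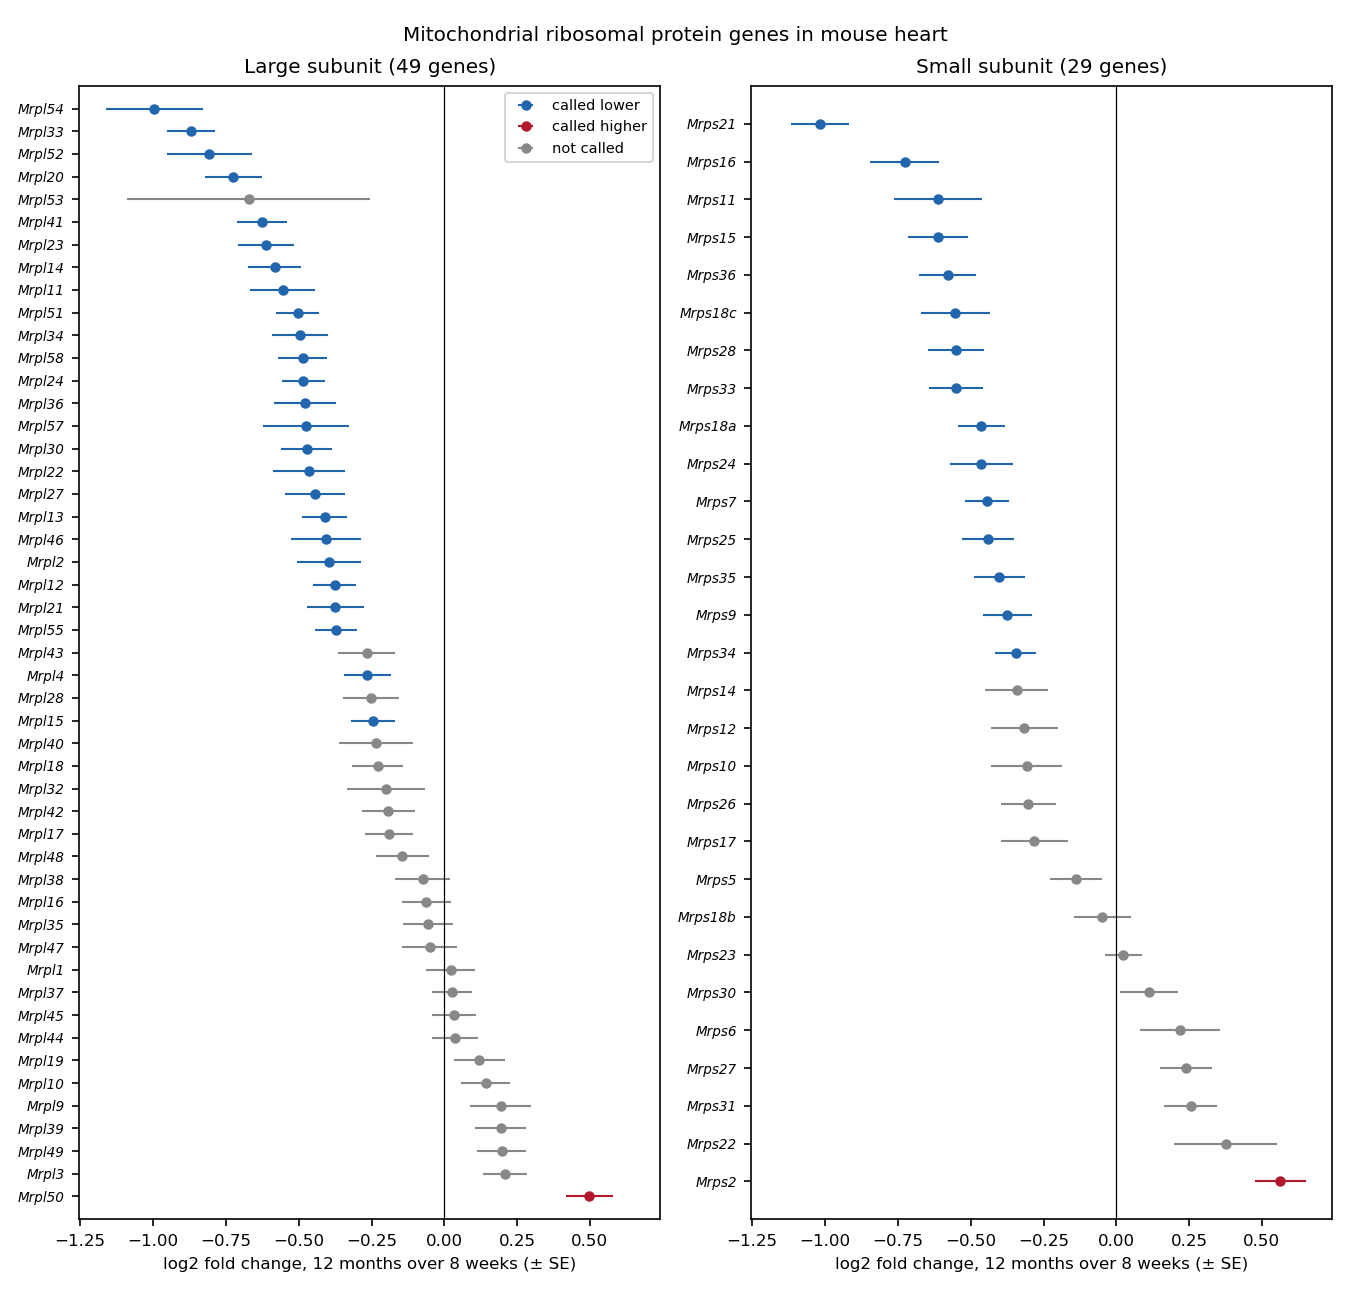
Log2 fold change, 12 months over 8 weeks, of each member (points, with bars of 1 SE; edgeR), split by symbol into 49 large and 29 small subunit genes and coloured by call. Most points lie left of 0, from -1.02 for Mrps21, and Mrpl50 (0.50) and Mrps2 (0.56) are the members called higher.

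In the large subunit 25 of 49 members were called lower and 1 higher, against 17.5 and 20.1% of tested genes. The median log2 fold change was -0.27. Mrpl54, a mitochondria-specific protein encoded on chromosome 10 (81264713 to 81266934 in GRCm38, minus strand), had 10.3 and 8.45 FPKM in aged hearts, against 16.3 and 19.7 FPKM in young hearts. Both aged libraries lay below both young ones, and the log2 fold change was -0.996 ± 0.166 (SE; adjusted p = 0.00656). Mrpl33, the counterpart of bacterial L33 (chromosome 5, 31596935 to 31664384, plus strand), had 3.74 and 3.69 FPKM in aged hearts, against 6.28 and 6.77 FPKM in young hearts (-0.87 ± 0.08, adjusted p = 0.00149). The aged values were nearly equal to each other and well below the young ones, and Rbks overlaps this gene on the opposite strand. Mrpl52, another mitochondria-specific protein, had 7.62 and 6.59 FPKM in aged hearts, against 12.7 and 11.2 FPKM in young hearts (-0.81 ± 0.15, adjusted p = 0.00838). Mrpl20, whose bacterial counterpart binds the large rRNA early in assembly, had 8.34 and 9.02 FPKM in aged hearts, against 13.8 and 13.8 FPKM in young hearts (-0.72 ± 0.10, adjusted p = 0.00372). The ages were also apart in Mrpl41, with 20.4 and 21.6 FPKM in aged hearts, against 31.7 and 30.4 FPKM in young hearts (-0.63 ± 0.08, adjusted p = 0.00363). Mrpl14, a conserved protein at the face between the subunits, had a log2 fold change of -0.58 ± 0.09.

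By origin, 18 of 30 large subunit members with a bacterial counterpart were called lower and none higher (median -0.37), against 17.5 and 20.1% of tested genes. Of the 19 mitochondria-specific ones, 7 were called lower and 1 higher (median -0.23); the difference between these groups was not tested. Around the exit of the tunnel through which the new chain leaves, 3 of 5 were called lower. These were Mrpl23, with 4.38 and 5.09 FPKM in aged hearts, against 6.84 and 7.05 FPKM in young hearts (-0.61 ± 0.10), Mrpl24 (-0.48 ± 0.08) and Mrpl22 (-0.46 ± 0.12). Mrpl45, which anchors the ribosome to the inner membrane, had 18.9 and 20.7 FPKM in aged hearts, against 18.1 and 19.1 FPKM in young hearts, and its ages overlapped (0.03 ± 0.08). Mrpl47 also overlapped between the ages (-0.05 ± 0.09).

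The stalk recruits the translation factors, and 2 of its 3 proteins were called lower. Mrpl12, the member with the highest mean level (59.8 FPKM), had 52.1 and 54.4 FPKM in aged hearts, against 68.9 and 63.8 FPKM in young hearts (-0.38 ± 0.07, adjusted p = 0.0109), and Mrpl11 had a log2 fold change of -0.56 ± 0.11. Mrpl10, which ties the Mrpl12 copies to the body of the ribosome, had 19.8 and 21.8 FPKM in aged hearts, against 18.3 and 17.9 FPKM in young hearts, a value not called (0.14 ± 0.08, adjusted p = 0.224). Near the peptidyl transferase centre, where peptide bonds form, Mrpl27 (-0.44 ± 0.10) and Mrpl2 (-0.40 ± 0.11) were called lower, and Mrpl16 (-0.06 ± 0.08) and Mrpl3 (0.21 ± 0.07) were not called. The central protuberance touches the tRNAs and the small subunit, and of the 5 members listed for it here 1 was called. Mrpl46 fell (-0.41 ± 0.12, adjusted p = 0.0405), while Mrpl18, Mrpl38, Mrpl40 and Mrpl48 had values between -0.23 and -0.07. The list was chosen beforehand and may not hold every protein of this region. Mrpl46 overlaps Mrps11 on the opposite strand, and without the strand setting of the counting their reads cannot be told apart with certainty.

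Among the other abundant large subunit members, Mrpl34 (-0.49 ± 0.10) and Mrpl55 (-0.37 ± 0.07) were called lower. Mrpl18 had 43.8 and 47.2 FPKM in aged hearts, against 54.4 and 47.9 FPKM in young hearts (-0.23 ± 0.09, adjusted p = 0.0876). Mrpl42 (-0.19 ± 0.09) and Mrpl28 (-0.25 ± 0.10) were also not called, and the FPKM of Mrpl42 overlapped between the ages. The 1 large subunit member that rose was Mrpl50, a mitochondria-specific protein (chromosome 4, 49512596 to 49521093, minus strand), with 17.1 and 18.1 FPKM in aged hearts, against 12.1 and 11.8 FPKM in young hearts. Its log2 fold change was 0.50 ± 0.08 (adjusted p = 0.00604), and it lost its call without young replicate 2. Mrpl53 had 23.9 and 9.06 FPKM in aged hearts, against 26.8 and 24.0 FPKM in young hearts. Aged replicate 2 alone stood low in it. The log2 fold change of -0.67 ± 0.42 was not called (adjusted p = 0.248), and it was called lower without aged replicate 1; Gm42688 overlaps it on the same strand and Ccdc142os on the opposite one. The remaining large subunit members called lower (Mrpl51, Mrpl58, which can release chains from stalled ribosomes, Mrpl36, Mrpl57, Mrpl30, Mrpl13, Mrpl21, Mrpl4 and Mrpl15) had log2 fold changes between -0.50 and -0.24. Those not called (Mrpl43, Mrpl32, Mrpl17, Mrpl35, Mrpl1, Mrpl37, Mrpl19, Mrpl9, Mrpl39 and Mrpl49) had values between -0.27 and 0.20.

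**Figure D2:**
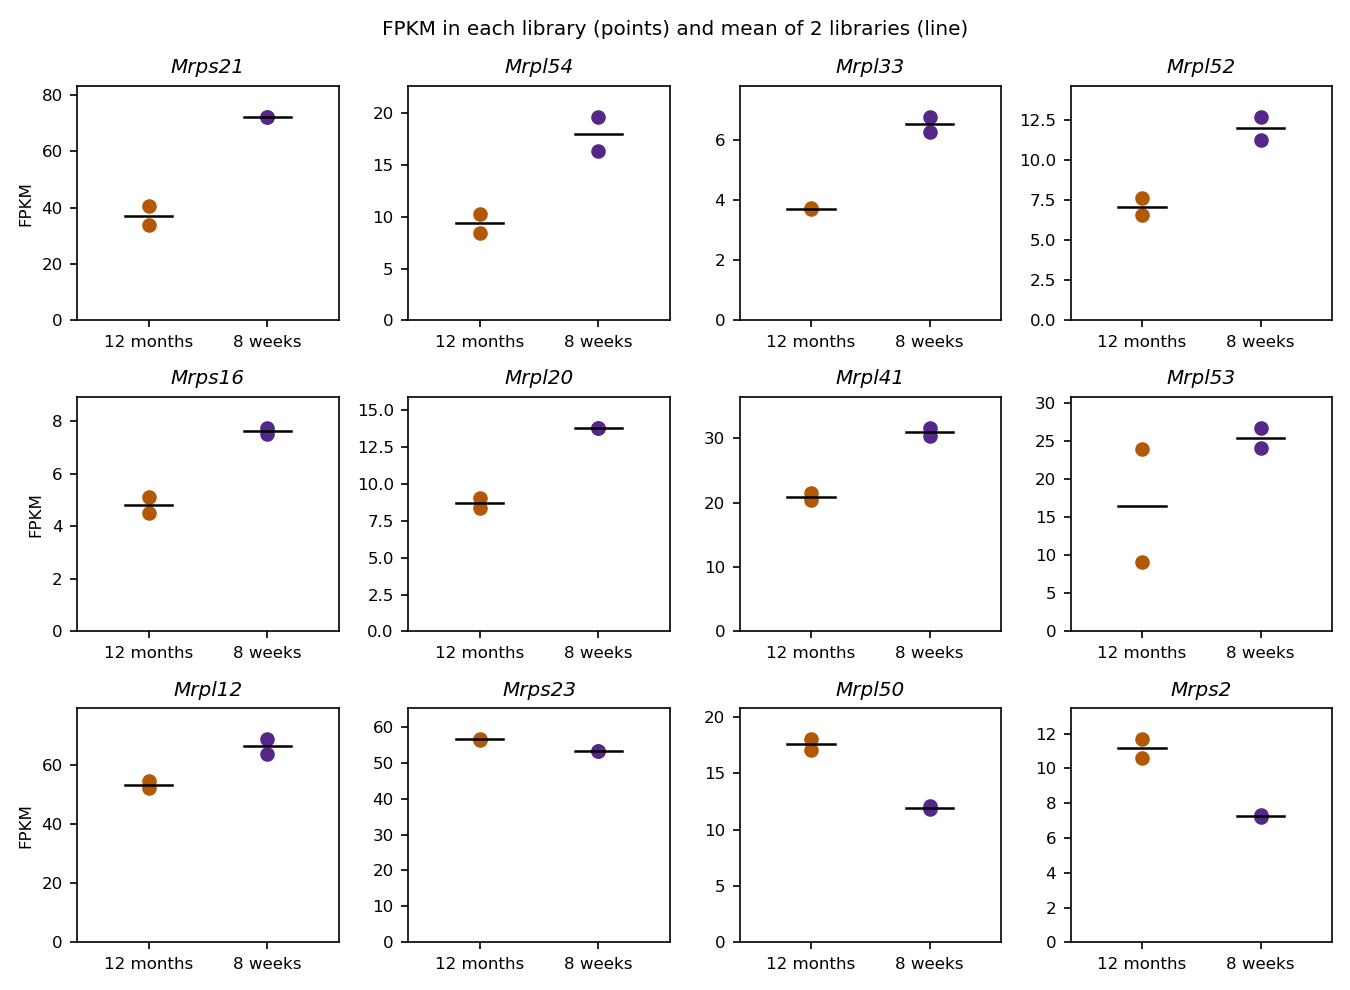
FPKM of 12 members in each library (points; line, mean of 2 libraries), 12 months left and 8 weeks right, on axes that start at 0. The aged points lie below the young ones in Mrps21, Mrpl54, Mrpl33, Mrpl52, Mrps16, Mrpl20, Mrpl41 and Mrpl12 and above them in Mrps23, Mrpl50 and Mrps2, and Mrpl53 is low in 1 aged library.

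In the small subunit 15 of 29 members were called lower and 1 higher, against 17.5 and 20.1% of tested genes. The median log2 fold change was -0.35. Mrps21, the counterpart of bacterial S21 and among the most abundant members (54.6 FPKM over the 4 libraries; chromosome 3, 95862634 to 95871519, minus strand), had 33.8 and 40.5 FPKM in aged hearts, against 72.0 and 72.3 FPKM in young hearts. Its log2 fold change of -1.02 ± 0.10 was the lowest of all members (adjusted p = 0.00156). Mrps16, whose bacterial counterpart helps the small subunit to assemble (chromosome 14, 20389304 to 20393634, minus strand), had 5.10 and 4.50 FPKM in aged hearts, against 7.52 and 7.75 FPKM in young hearts (-0.73 ± 0.12, adjusted p = 0.00601). Mrps11 (-0.61 ± 0.15), Mrps15 (-0.61 ± 0.10), Mrps18c (-0.55 ± 0.12), Mrps28 (-0.55 ± 0.10) and Mrps33 (-0.55 ± 0.09) followed, each called lower, and Gm43511 overlaps Mrps18c on the same strand. Mrps36, the oxoglutarate dehydrogenase subunit, was called lower as well, with 15.3 and 17.4 FPKM in aged hearts, against 24.4 and 22.4 FPKM in young hearts (-0.58 ± 0.10, adjusted p = 0.00710). Of the pair that sit in the large subunit, Mrps18a was called lower (-0.46 ± 0.08) and Mrps30 was not called (0.11 ± 0.10).

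In the path of the mRNA and the decoding centre, Mrps24 (-0.46 ± 0.11) and Mrps7 (-0.44 ± 0.08) were called lower, and Mrps12 (-0.32 ± 0.11, adjusted p = 0.0736) and Mrps5 (-0.14 ± 0.09, adjusted p = 0.264) were not. The ages did not overlap in scaled counts in any of these 4, where 73.3% of tested genes do not overlap. Of 17 small subunit members with a bacterial counterpart 9 were called lower and 1 higher, and of 9 mitochondria-specific ones 4 and none. The shares over all tested genes were 17.5 and 20.1%. Mrps23, the second most abundant member, was nearly level, with 56.2 and 56.7 FPKM in aged hearts, against 53.3 and 53.3 FPKM in young hearts (0.02 ± 0.06). Mrps34, another abundant member, was called lower (-0.35 ± 0.07, adjusted p = 0.0129), and Nme3 overlaps it on the same strand. Mrps2, a conserved protein of the small subunit on chromosome 2 (28468066 to 28471178, plus strand), had 10.6 and 11.7 FPKM in aged hearts, against 7.30 and 7.20 FPKM in young hearts. Its aged values were the higher ones throughout, with a log2 fold change of 0.56 ± 0.09 (adjusted p = 0.00524). The remaining small subunit members called lower (Mrps25, Mrps35 and Mrps9) had log2 fold changes between -0.44 and -0.37. Those not called (Mrps10, Mrps26, Mrps17, Mrps18b, Mrps6, Mrps27 and Mrps31) had values between -0.31 and 0.26, and Slc5a3 overlaps Mrps6 on the same strand.

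The 4 members whose human genes carry recessive variants in cardiomyopathy did not pass the test in either direction. Mrps22 had 5.38 and 4.03 FPKM in aged hearts, against 3.24 and 3.73 FPKM in young hearts (0.38 ± 0.18, adjusted p = 0.141), and was called higher without aged replicate 2. Its highest young value was below its lowest aged one by little. Mrpl3 had 11.3 and 10.6 FPKM in aged hearts, against 9.16 and 9.06 FPKM in young hearts (0.21 ± 0.07, adjusted p = 0.0712). It was called higher without aged replicate 2, with scaling by library totals and with rescaled FPKM. Mrps14, the member of these 4 with a value below 0, had 6.79 and 7.21 FPKM in aged hearts, against 9.24 and 7.80 FPKM in young hearts (-0.34 ± 0.11, adjusted p = 0.0525), a value not called. It was called lower without young replicate 2, with DESeq2 or its size factors, with upper quartile scaling, with a mean of at least 5 FPKM, without mitochondrially encoded genes, and with the trend of length, of GC content or of both removed. Mrpl44 had 20.8 and 22.03 FPKM in aged hearts, against 19.99 and 20.1 FPKM in young hearts (0.04 ± 0.08, adjusted p = 0.732), and it was called higher with rescaled FPKM.

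Summed levels were lower in aged hearts for both subunits. The large subunit members summed to 753.7 and 779 FPKM in aged hearts, against 930.1 and 882.9 FPKM in young hearts, 0.845 times the young mean. The small subunit members summed to 354.7 and 376.3 FPKM in aged hearts, against 455.4 and 444.3 FPKM in young hearts, 0.813 times the young mean. In both subunits each aged sum was below each young sum. The FPKM of all genes also summed to less in aged hearts, with 494057 and 496506, against 549019 and 546455 in young hearts. Of that total, the 13 mRNAs of the mitochondrial genome held 203100 and 198900 FPKM in aged hearts, against 235400 and 235200 FPKM in young hearts. The median log2 fold change of all tested genes was 0.06 with limma on log2(FPKM + 0.1), so the typical gene was not lower. How far the members' sums follow the total was not tested. The ratio of the large to the small sum was 2.13 and 2.07 in aged hearts (mean 2.097 ± 0.04, SD, n = 2), against 2.04 and 1.99 in young hearts (mean 2.015 ± 0.04, SD, n = 2). The aged ratios were the higher ones by a difference of the means of 0.08. It was 0.19 without the most abundant member of each subunit (Mrpl12 and Mrps23). Mrps21, with 33.8 and 40.5 FPKM in aged hearts, against 72.0 and 72.3 FPKM in young hearts, stays in both ratios. With Mrps21 alone left out, and all other members kept, the aged ratios are not the higher ones. The direction of the difference of 0.08 thus rests on this 1 gene. With 2 libraries at each age the difference was not tested.

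The members have short transcripts, with a median of 1866 nt for the longest listed transcript, against 3096 nt over all tested genes, and short genes as a whole had lower values in aged hearts. When tested genes were divided by length into 5 classes of like size, in the shortest class (up to 1557 nt) the median log2 fold change of all genes was -0.22 and 22.3% were called lower, and of the 34 members there 23 were called lower (67.6%; median -0.46). In the next class 8 of 16 members were called lower, against 15.7% of all genes, and in the longer classes 4 of 13, 3 of 11 and 2 of 4, against 15.2, 17.0 and 17.2%. Across the members the Spearman correlation of log2 fold change with transcript length was 0.433, against 0.173 across all tested genes; these are descriptions, over genes measured in the same 4 libraries. With a smooth trend of length removed, 31 members were called lower and 2 higher (18.0 and 16.8% of tested genes). Of the 31, 29 were among the 40. The removal was not complete for short genes. In the shortest class, which holds 34 members, the median of all genes was still -0.116. In the longer classes it lay between -0.0194 and 0.0056. Removing trends of length and GC content left 30 called lower and 2 higher (17.3 and 15.8%), with 24 of those called lower among the 40. Mrpl23 (-0.68, adjusted p = 0.00478) and Mrpl33 (-0.94, adjusted p = 0.00171) kept their call without the length trend, and Mrps11 (-0.44, adjusted p = 0.0768) and Mrpl22 (-0.30, adjusted p = 0.188) did not. Divided at their median length, the 39 shorter members had a median of -0.44, and -0.28 with the trend removed, and the 39 longer ones had -0.24, and -0.31 with the trend removed. Whether transcript length itself or another property that goes with it moves with age was not tested.

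**Figure D3:**
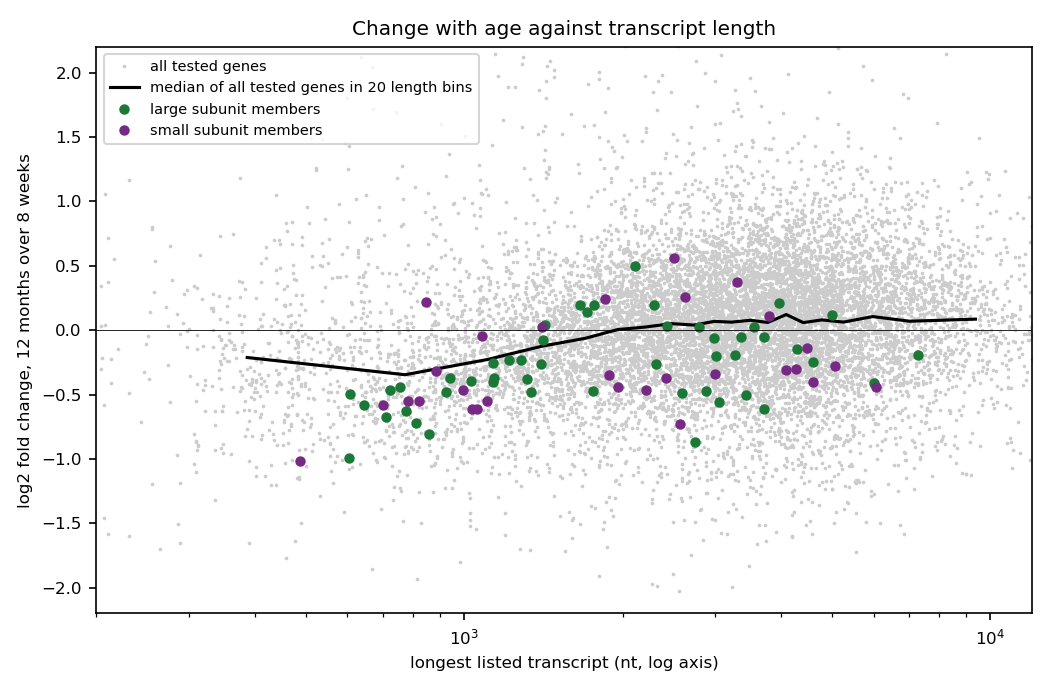
Log2 fold change, 12 months over 8 weeks, against the longest listed transcript (nt, log axis) for all tested genes (grey), with their median in 20 length bins (line) and the large and small subunit members (coloured points). The shortest member, Mrps21, is also the lowest (-1.02), and the line is itself below 0 for short transcripts.

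Beyond the symbols used to choose the members, 5 more proteins of the mitochondrial ribosome were measured under other names. Chchd1 (-0.50 ± 0.08), Aurkaip1 (-0.45 ± 0.08) and Gadd45gip1 (-0.63 ± 0.12) were called lower, of which Chchd1 lost its call with the length trend removed (adjusted p = 0.0877), the GTP-binding Dap3 was not called (-0.10 ± 0.07), and Ptcd3, a pentatricopeptide protein of the small subunit, was called higher, with 14.61 and 15.09 FPKM in aged hearts, against 10.43 and 10.12 FPKM in young hearts (0.47 ± 0.07). Of the ribosomal RNAs, mt-Rnr1 of the small subunit had 837 and 973 FPKM in aged hearts, against 1850 and 2042 FPKM in young hearts (-1.16 ± 0.09, adjusted p = 0.00120). The large subunit rRNA mt-Rnr2 was not called, with 3976 and 3867 FPKM in aged hearts, against 3244 and 3599 FPKM in young hearts (0.14 ± 0.07). The libraries were made from poly(A) RNA, so these values count RNA that was captured by oligo(dT), and how far they follow the rRNA in ribosomes was not tested. Of the 13 mRNAs that the ribosome reads, 8 were called lower and 1 higher (median -0.31), against 17.5 and 20.1% of tested genes, led by mt-Nd3 (-0.89 ± 0.08) and mt-Co3 (-0.64 ± 0.05). The mRNA called higher was mt-Nd4l (0.31 ± 0.09), and it lost its call with the length trend removed (adjusted p = 0.617); 3 of the 8 kept theirs there (mt-Nd3, mt-Co2 and mt-Co3), with 18.0% of tested genes called lower.

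Calls among the factors that work with the ribosome went in both directions. Of 15 translation factors 2 were called lower and 6 higher (median 0.19), where 17.5% of tested genes were called lower and 20.1% higher. Taco1, the activator of the translation of cytochrome oxidase subunit I, had 20.1 and 20.9 FPKM in aged hearts, against 6.49 and 7.18 FPKM in young hearts (1.52 ± 0.11, adjusted p = 0.00120). The elongation factor Gfm1 had 35.2 and 37.1 FPKM in aged hearts, against 21.7 and 21.98 FPKM in young hearts (0.67 ± 0.07). Mrrf, which recycles ribosomes, and Gfm2, which works with it, were also called higher (0.44 ± 0.08 and 0.39 ± 0.07). Each kept its call in only 2 of the 4 fits that leave out a library. The factors called lower were Metap1d, which removes the first methionine (-0.86 ± 0.08), and Tufm, the elongation factor that delivers tRNAs (-0.33 ± 0.08). Tufm, too, kept its call in only 2 of these 4 fits. Taco1, Gfm1 and Metap1d kept their calls in each of the 4 fits that leave out a library. Among 28 tested genes of assembly and rRNA modification, 3 were called lower and 7 higher (median -0.08). Those higher included Afg3l2, a protease that processes the large subunit protein Mrpl32 (0.47 ± 0.07), Fastkd2 (0.54 ± 0.10), Gtpbp10 (0.68 ± 0.14) and Trub2 (0.48 ± 0.11), and those lower were Rbfa (-0.49 ± 0.12), Malsu1 (-0.41 ± 0.12) and Mtg2 (-0.28 ± 0.09). Malsu1 and Mtg2 lost their call in all 4 fits that leave out a library, and Trub2 in 3 of the 4. Fastkd2 and Gtpbp10 kept theirs in 2 of the 4.

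Of 9 tested genes of mitochondrial transcription and RNA stability, 1 was called lower and 5 higher (median 0.28). The mitochondrial transcription factor Tfb2m had 15.4 and 15.5 FPKM in aged hearts, against 7.65 and 7.44 FPKM in young hearts (0.97 ± 0.08). Lrpprc and Slirp, whose products form a complex that keeps mitochondrial mRNAs stable, were called in opposite directions. Lrpprc had 19.4 and 19.95 FPKM in aged hearts, against 9.96 and 10.1 FPKM in young hearts (0.91 ± 0.07, adjusted p = 0.00120). Slirp had 1.40 and 1.88 FPKM in aged hearts, against 2.71 and 2.86 FPKM in young hearts (-0.82 ± 0.18, adjusted p = 0.0162), and lost its call in 2 of the 4 fits that leave out a library. Of 15 tested aminoacyl-tRNA synthetases of mitochondria, which load tRNAs with amino acids, none was called lower and 4 higher, among them Iars2 (0.45 ± 0.07), Nars2 (0.65 ± 0.13) and Lars2 (0.60 ± 0.12), and the median was -0.01. Where 17.5% of all tested genes were called lower and 20.1% higher, the 4 of 15 synthetases called higher make 26.7%.

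The counts of these lists changed when a library was left out. Without young replicate 1, with 7.4% of tested genes called lower and 9.87% higher, they were 5 lower and none higher for the mitochondrial mRNAs, 1 and 2 for the translation factors, none and 1 for assembly, none and 2 for transcription and RNA stability, and none and 3 for the synthetases. Without young replicate 2, with 8.71 and 10.5%, they were 6 and none, 1 and 2, 1 and 2, none and 3, and none and 2, in the same order. Without aged replicate 1, with 16.0 and 17.4%, they were 8 and none, 2 and 4, 1 and 6, 1 and 4, and none and 3. Without aged replicate 2, with 17.8 and 20.9%, they were 7 and 2, 2 and 4, 1 and 3, 1 and 5, and none and 4.

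**Figure D4:**
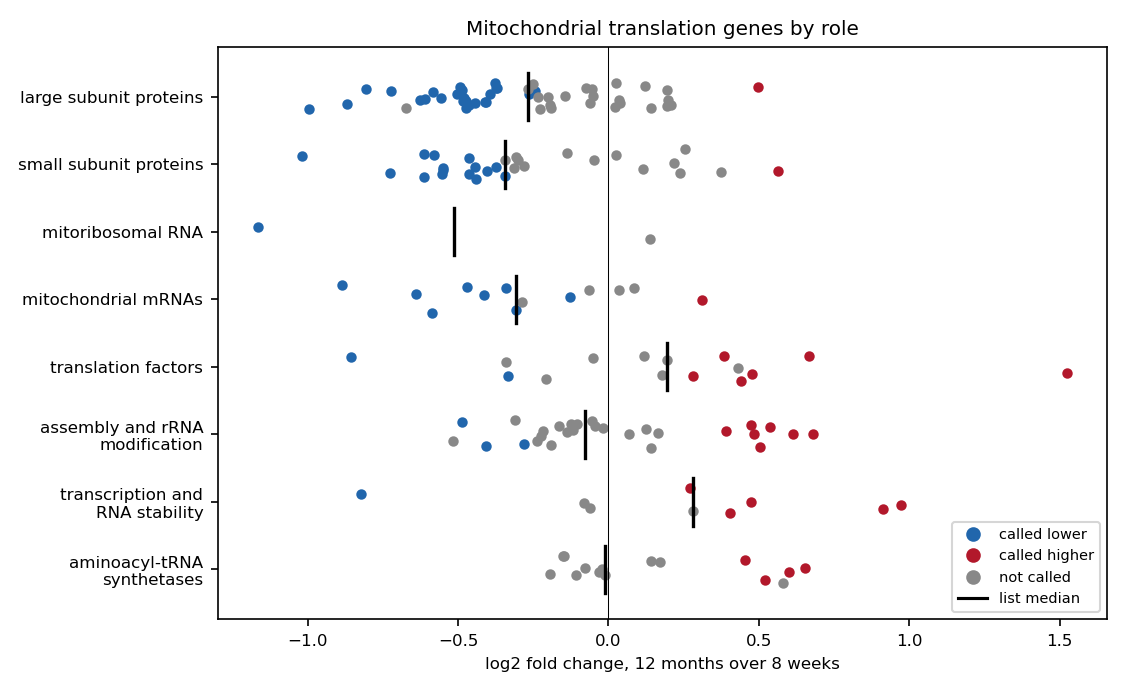
Log2 fold change, 12 months over 8 weeks, of the genes of mitochondrial translation by role (points, coloured by call; black lines, list medians). The medians of the ribosomal proteins are -0.27 and -0.35 and that of the mitochondrial mRNAs is -0.31, while translation factors (0.19) and genes of transcription and RNA stability (0.28) have medians above 0.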

How the data were processed

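Poly(A) RNA of hearts was sequenced in pairs on an Illumina instrument from dUTP-marked libraries, per the labels' protocols. Per the submitters' processing notes, the build was GRCm38 and the tools were HISAT2 2.2.1, cutadapt 1.9, edgeR, DESeq2 and StringTie 2.1.6. What each tool did, and how strand and multi-mapped reads were handled, is not given in the sources used here. Per the file headers, the deposited table holds an estimated count and an FPKM value per gene and library, made by the authors; the deposited estimated counts are whole numbers already. The gene length implied by FPKM and count was 1.09 to 2.91 times the longest listed transcript (median 1.37), so FPKM of members compare less exactly between genes than between ages.

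Counts of genes with a mean of at least 1 FPKM (12027) were fitted with edgeR 4.0.16 (R 4.3.3), with adjustment over all of them. The settings were TMM scaling and the quasi-likelihood test, two-sided, 12 months minus 8 weeks, with no block. The test was also run on data simulated with the common dispersion (0.02432) for every gene. That setting is simpler than the data, so it does not show how the test performs on the members. Each SE was obtained by dividing the absolute log2 fold change by the square root of its F statistic. Alternatives used DESeq2 1.42.0, limma 3.58.1 on log2(FPKM + 1), log2(FPKM + 0.1) or FPKM rescaled to 1 sum, other scalings, other minimums (0.1, 5 or none), trends of length or GC content removed (mgcv 1.9.3, 8 basis functions), a threshold of 0.01, no mitochondrially encoded genes, and each library left out. The split of members at their median length was added after seeing the data. Library totals were 51328364 to 63828074 counts, and 2 libraries an age limit the precision.

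The members, the lists of related genes and the roles were chosen with earlier results of these data known. Named members are those called higher, the 8 largest called falls and the 6 highest levels in each subunit, and those in the role lists, with up to 4 called genes of each other list and all called against its majority. Mrpl51, Mrpl53, members named only to account for all 78, and genes named as divergent neighbours, overlapping genes or pseudogene entries fall outside that rule and were named after their values were seen. Of the genes in the other lists, 1 that the rule would name is not reported here. Replicate numbers are names in accession order.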

Additional observations from a re-analysis of the deposited data

How the results depend on the processing

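The direction of every called member held under each alternative run. Over 48 named members and their alternatives, 789 of 909 values kept their side of the threshold, 97 lost a call and 23 gained one. The count called lower was 18 with rescaled FPKM, 20 at a threshold of 0.01 and 9 to 38 with a library left out; the count called higher was 13 with rescaled FPKM and 1 to 4 with a library left out. The causes were not tested. The large subunit median was -0.32 with the GC trend removed, -0.057 with rescaled FPKM, -0.20 with limma on log2(FPKM + 0.1), -0.20 on log2(FPKM + 1), -0.42 with a mean of at least 5 FPKM (which keeps 67 members) and -0.36 to -0.23 with a library left out, and the small subunit median was -0.13 with rescaled FPKM and -0.44 to -0.28 with a library left out. The excess of the large-to-small ratio in aged hearts was 0.19 without the most abundant member of each subunit. That setting keeps Mrps21 in the small sum. With Mrps21 alone left out, and all other members kept, there is no excess. Over all tested genes 4520 were called, 2990 with a mean of at least 5 FPKM, 2272 at a threshold of 0.01 and 2077 to 4658 with a library left out. No paired analysis was possible because the replicate numbers are accession order and the titles of the ages share only the number 5.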

Other observations

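Of the members, 21 (26.9%) have a neighbour that starts within 500 bases and runs the other way, against 12.4% of tested genes, and 16 of these neighbours were tested. In 9 of the 16 pairs the member was called lower, and in 4 of these the neighbour was called lower too. Mrpl36 (-0.48) stands 51 bases from Ndufs6, a subunit of complex I, which had 41.4 and 49.4 FPKM in aged hearts, against 106.7 and 100.1 FPKM in young hearts (-1.25 ± 0.10). The other 3 pairs called lower together were Mrpl30 with Mitd1 (-0.68 ± 0.21), Mrpl2 with Klc4 (-0.39 ± 0.09) and Mrps34 with Eme2 (-0.42 ± 0.08). Mrpl14 (-0.58) and its neighbour Tmem63b, a membrane channel 63 bases away, were called in opposite directions, with 20.3 and 22.1 FPKM of Tmem63b in aged hearts, against 15.9 and 15.8 FPKM in young hearts (0.36 ± 0.07). Over the 16 neighbours 6 were called lower and 2 higher, with a median log2 fold change of -0.22, where 17.5% of all tested genes were called lower and 20.1% higher.

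The 5 entries marked as pseudogenes of these genes held few counts, and none of the 3 that were tested was called. Mrpl23-ps1 had the most, with 105 and 74 counts in aged hearts, against 146 and 152 counts in young hearts (log2 fold change -0.66, adjusted p = 0.138 in edgeR). Overlaps with other listed genes were found for 34 of the 78 members (29 with an opposite-strand gene, 9 with a same-strand gene), so some reads may be shared.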
